A study of Mus musculus with 8 samples.

Results

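The 38 genes described here carry glucose into cardiomyocytes, split it through glycolysis, admit pyruvate to the mitochondria and store or release glycogen. They were chosen by gene symbol, and they are 38 of the 46040 genes listed in the count table of the left ventricle (LV). No threshold on measured values entered the choice. LV RNA of 8 male mice on the C57BL/6 background, 5 to 7 months old, was sequenced on day 14 of angiotensin II (angII) infusion. Osmotic minipumps delivered angII at 0.1 mg/kg/h to every mouse in both groups, so that no library stands for a heart without pressure overload. One group of 4 libraries is tagged as littermate control. The other group of 4 is tagged as VEGFR-1 TK-/-, a line in which the *Flt1* allele lacks the intracellular tyrosine kinase domain in every cell of the body. Only mice that survived the infusion were collected.

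Which group is which is not certain. For each sample the tag for genotype and the name of the library point to the same genotype, but its title gives the opposite one. The tags and library names were followed, and the groups are called control-tagged and knockout-tagged for that reason. Each log2 fold change sets the knockout-tagged group against the control-tagged group, and if the titles hold the true genotype every sign is the opposite. The library names also speak of cardiomyocytes where the source is LV tissue. Nothing in the labels ties a library to a named animal, so that the spread between libraries may be partly technical.

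Total counts lay between 12349639 and 16239670 per control-tagged library and between 11449137 and 13505888 per knockout-tagged library. Levels are given as normalised CPM, the count of a gene relative to the total of its library after scaling by the trimmed mean of M values (TMM). Levels of different genes are compared after division by exon length (normalised CPM per kilobase), unless stated otherwise. Exon length is that of all annotated exons of a gene merged. It can exceed the length of the mRNA that was made, and levels per kilobase depend on it. *Flt1*, the targeted gene, stood at 67.4, 68.3, 56.8 and 84.2 normalised CPM in control-tagged replicates 1 to 4 and at 143, 149, 169 and 168 in knockout-tagged replicates 1 to 4. Its log2 fold change was 1.19 (SE 0.12, FDR = 0.00808 by the quasi-likelihood test of edgeR). A count over the whole gene cannot show whether the kinase domain is missing, and thus does not settle the labels. Control-tagged replicates 2 and 3 lay farthest apart of all libraries of one group (chi-square per degree of freedom 49.9, against 6.77 for the closest pair). Results that change without them are also given without them.

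Glucose enters the cardiomyocyte mainly through the insulin-responsive transporter GLUT4 and is trapped by hexokinase. Phosphofructokinase commits it to glycolysis, and pyruvate at the end of that chain is either reduced to lactate or carried into mitochondria and oxidised by the pyruvate dehydrogenase (PDH) complex, which PDH kinases switch off and PDH phosphatases switch on. The adult heart burns mostly fatty acids, and a greater reliance on glucose is a known trait of the hypertrophied heart.

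None of the 38 genes was called, for which an FDR (the adjusted p over all genes) under 0.1 and a difference of 1.5-fold or more either way were asked. The lowest FDR among them was 0.522 by the quasi-likelihood test of edgeR, and 4 had an unadjusted p under 0.05. Of all 13542 genes tested, 1 was called (0.00738%). The filter on low counts, which 37 of the 38 passed, removed genes that did not reach a CPM of 1 in 2 or more libraries. The exception was *Aldoc*, the brain form of aldolase, with 1 to 6 reads per library and 0.0812 to 0.435 normalised CPM. The symbol *Pygm* also has a second row in the table, which is at 0 in all 8 libraries and was not tested. The likelihood ratio test called 0 of the 37 (lowest FDR 0.427) where it called 0.391% of all genes, and DESeq2 called 0 of them (lowest FDR 0.402) where it called 0.236%.

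The point estimates were small. Of the 37 tested members, 33 had an absolute log2 fold change under 0.2, and the median absolute value was 0.089 against 0.128 over all genes tested. In all, 28 were higher in the knockout-tagged group and 9 were lower, where 49.7% of all genes were higher. The median log2 fold change of the 37 was 0.07, against -0.0012 over all genes. This median was 0.02 without control-tagged replicate 2, 0.04 without knockout-tagged replicate 2, 0.11 without control-tagged replicate 3 and 0.05 without control-tagged replicates 2 and 3 together. The split by direction was 23 against 14 without control-tagged replicate 2, 32 against 5 without control-tagged replicate 3 and 29 against 8 without both. Between single libraries, the median deviation of the members had an SD of 0.11 on the log2 scale, which is larger than the median difference between the groups. The 95% confidence intervals of 31 members lay within 1.5-fold on either side of no difference, and those of 35 excluded a 2-fold difference. The spread within groups was like that of other genes, with a median SD of 0.21 on the log2 scale for the members and 0.21 for all genes.

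**Figure D1:**
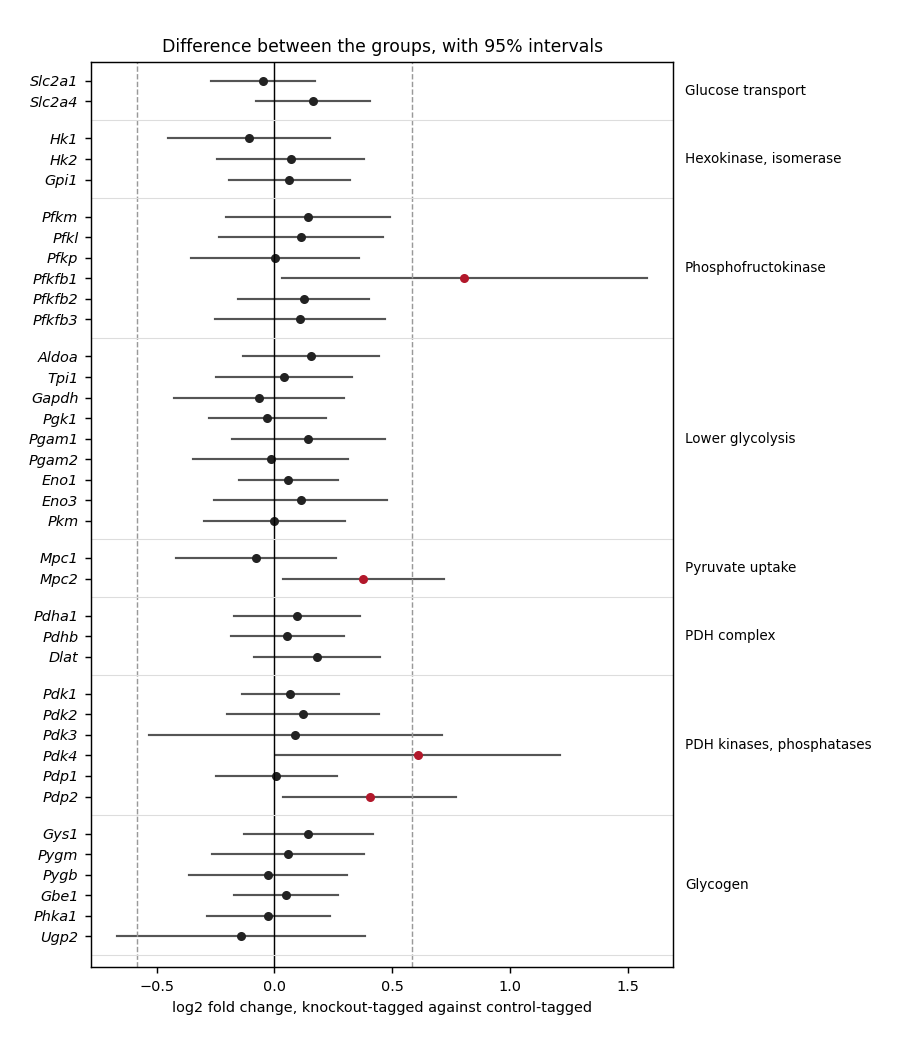
Difference between the groups for the 37 tested members, ordered by role: points are log2 fold changes of the knockout-tagged against the control-tagged group (4 libraries each), bars are 95% confidence intervals of the quasi-likelihood fit, dashed lines mark a 1.5-fold difference either way and red points mark an unadjusted p under 0.05. The 4 red points, *Pfkfb1*, *Mpc2*, *Pdk4* and *Pdp2*, lie to the right of 0, and most other intervals lie between the dashed lines.

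Aldolase A, GAPDH and the muscle phosphoglycerate mutase were the most abundant of the 38 mRNAs per length. *Aldoa*, which splits fructose 1,6-bisphosphate, reached 1307 ± 106 normalised CPM per kilobase in the control-tagged group and 1455 ± 99.2 in the knockout-tagged group (SD, n = 4 each), rank 25 of all genes tested. *Gapdh*, which oxidises glyceraldehyde 3-phosphate, reached 1257 ± 221 and 1201 ± 140 (rank 29). The order of *Aldoa* and *Gapdh* rests on exon lengths of 2911 and 4133 bases, since *Gapdh* had the higher normalised CPM before this division. *Pgam2* reached 985 ± 183 and 974 ± 120 (rank 39), and *Eno3*, the muscle enolase, 888 ± 173 and 959 ± 139 (rank 44). The mRNAs of these steps of lower glycolysis were thus near the top of the whole LV transcriptome in both groups. Of the 38, 20 stood among the 1000 most abundant genes per kilobase, 18 reached at least 100 normalised CPM per kilobase and 7 of the tested stayed under 10. *Pdk3*, a PDH kinase, was the lowest of those tested, at 0.956 ± 0.315 and 1.02 ± 0.27 from 21 to 50 reads per library.

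**Figure D2:**
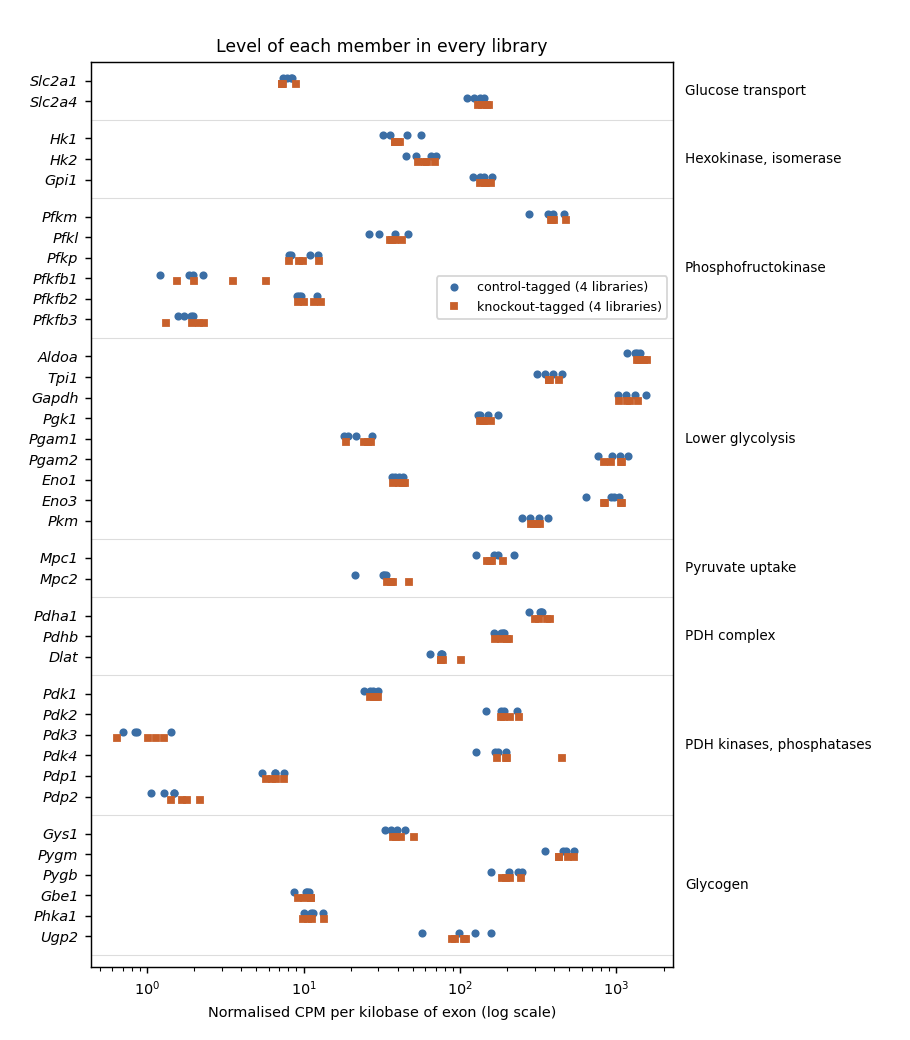
Level of each of the 37 tested members in every library, in normalised CPM per kilobase of exon on a log axis, grouped by role, with circles for the 4 control-tagged and squares for the 4 knockout-tagged libraries. The members span from about the level of *Pdk3* (0.956 in the control-tagged mean) to that of *Aldoa* (1307), and the circles and squares of nearly every gene overlap.

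Per-library levels of these abundant genes overlapped between the groups. *Aldoa* stood at 3924, 3381, 4104 and 3807 normalised CPM in control-tagged replicates 1 to 4 and at 4081, 4555, 4387 and 3918 in knockout-tagged replicates 1 to 4 (log2 fold change 0.15, SE 0.13, FDR = 0.755). *Gapdh* stood at 5434, 4231, 6345 and 4764 against 4318, 5708, 5029 and 4798 (log2 fold change -0.07, SE 0.16, FDR = 0.932). *Pgam2* stood at 887, 641, 1001 and 781 against 700, 907, 897 and 771 (log2 fold change -0.02, SE 0.15, FDR = 0.982). In all 3 genes control-tagged replicate 2 was the lowest of its group and replicate 3 the highest. *Gapdh*, *Aldoa*, *Tpi1*, *Pgk1*, *Pgam1*, *Eno1* and *Pkm* have processed copies elsewhere in the mouse genome, and the sources used here do not state how reads with several alignments were counted, so that their levels are uncertain to that extent.

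The 2 glucose transporters did not differ beyond the spread between libraries. *Slc2a4*, the gene of GLUT4, had a log2 fold change of 0.17 (SE 0.11, FDR = 0.689), and *Slc2a1*, the gene of the basal transporter GLUT1, had -0.05 (SE 0.10, FDR = 0.917). Of hexokinase and glucose phosphate isomerase, *Hk2* and *Gpi1* had log2 fold changes of 0.07 and 0.06. *Hk1*, the hexokinase found in most tissues, had the second lowest estimate of all members, at 390, 305, 483 and 275 normalised CPM in the control-tagged and 326, 328, 340 and 354 in the knockout-tagged libraries (log2 fold change -0.11, SE 0.16, FDR = 0.866). All 4 knockout-tagged values of *Hk1* lay inside the range of the control-tagged ones.

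The 6 genes of phosphofructokinase and its regulators all had estimates above 0 (median 0.12). *Pfkm*, *Pfkl* and *Pfkp* encode the muscle, liver and platelet subunits of the enzyme and had log2 fold changes of 0.14, 0.11 and 0.0027. The *Pfkfb* genes encode the bifunctional enzymes that make and break fructose 2,6-bisphosphate, the activator of phosphofructokinase. *Pfkfb2*, the cardiac form, had a log2 fold change of 0.12 (SE 0.13) and *Pfkfb3* had 0.11 (SE 0.17). *Pfkp* shares 748 exon bases with *Pitrm1* on the opposite strand, and counting by strand is not stated in the sources used here.

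Of lower glycolysis, 6 of 9 tested members were higher and 3 lower, with log2 fold changes between -0.07 for *Gapdh* and 0.15 for *Aldoa*, with a lowest FDR of 0.755. In log2 fold changes, *Tpi1* had 0.04, *Pgk1* -0.03, *Pgam1* 0.14, *Eno1* 0.06, *Eno3* 0.11 and *Pkm*, pyruvate kinase, 0.00046. The mean of *Pkm* was 1516 ± 253 normalised CPM in the control-tagged group and 1517 ± 86.6 in the knockout-tagged group (SD, n = 4 each). The SD of the control-tagged group exceeded that of the knockout-tagged group in 8 of these 9 genes, *Eno1* being the exception.

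Of the PDH complex, *Pdha1* and *Pdhb* (the E1 subunits) had log2 fold changes of 0.10 and 0.06, and *Dlat* (the E2 subunit) had 0.18 (SE 0.12, FDR = 0.690). Of the kinases and phosphatases that set its activity, *Pdk1*, *Pdk2* and *Pdk3* had log2 fold changes of 0.07, 0.12 and 0.09, and *Pdp1* had 0.0072. All 9 estimates of the complex and its regulators were above 0, from 0.0072 for *Pdp1* to 0.61 for *Pdk4*.

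An unadjusted p under 0.05 was found for 4 of the 37 members (10.8%), against 8.96% of all genes tested. All 4 were higher in the knockout-tagged group, where 3.32% of all genes had such a p and were higher and 5.64% had one and were lower. They were *Pdk4* and *Pdp2*, which act on PDH, *Mpc2*, a subunit of the mitochondrial pyruvate carrier, and *Pfkfb1*. The count changed with the choice of libraries. It was 2 without control-tagged replicate 1, 1 without control-tagged replicate 2, 1 without control-tagged replicate 4, 0 without knockout-tagged replicate 2 and 0 without control-tagged replicates 2 and 3 together. Fewer libraries also lower the power of the test, so that a lower count need not mean smaller estimates. Without control-tagged replicate 1, *Pdk4* and *Pfkfb1* kept log2 fold changes of 0.61 and 0.81 but lost such a p. Without control-tagged replicates 2 and 3, the estimates were 0.79 for *Pdk4*, 0.74 for *Pfkfb1*, 0.46 for *Pdp2* and 0.23 for *Mpc2*.

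*Pdk4*, the PDH kinase induced by fasting and fatty acids, stood at 588, 614, 694 and 444 normalised CPM in control-tagged replicates 1 to 4 and at 607, 1577, 690 and 699 in knockout-tagged replicates 1 to 4. One library thus set it apart, and the other 3 knockout-tagged libraries lay inside or just above the control-tagged range. Its level was 1.53-fold higher (95% interval 1.01 to 2.32, log2 fold change 0.61, SE 0.28, FDR = 0.554), and the exact permutation test (2-sided, 4 against 4 libraries) gave p = 0.171. Without knockout-tagged replicate 2 the log2 fold change was 0.18.

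The same library stood out among genes that are switched on with *Pdk4* by PPAR receptors in fasting. Of 13 such genes listed, 12 were higher in the knockout-tagged group and 6 had an unadjusted p under 0.05, with a median log2 fold change of 0.34, and 10 of the 13 were highest among the knockout-tagged libraries in replicate 2, as were 48.6% of the members and 24.9% of all genes. Without knockout-tagged replicate 2, 10 of the 13 were higher, 4 had an unadjusted p under 0.05 and the median was 0.18. With all 8 libraries, 3.32% of all genes tested were higher at such a p. The list was written with earlier results of these data known and is no independent evidence for *Pdk4*.

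*Pdp2*, a phosphatase that reactivates PDH, stood at 8.52, 7.32, 8.46 and 5.99 normalised CPM in the control-tagged libraries and at 10.3, 12.4, 9.47 and 8.04 in the knockout-tagged ones, from 75 to 140 reads per library. The groups overlapped only through knockout-tagged replicate 4. Its log2 fold change was 0.40 (SE 0.17, 95% interval 0.04 to 0.77, FDR = 0.522), with an exact permutation p of 0.0857. *Pdk4* and *Pdp2*, which act on PDH in opposite directions, thus had estimates of the same sign.

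*Mpc2* was the member whose groups did not overlap, at 239, 235, 156 and 248 normalised CPM in the control-tagged and 265, 349, 275 and 252 in the knockout-tagged libraries. The gap between the highest control-tagged and the lowest knockout-tagged library was small, 248 against 252. It was 1 of 37 members, where the groups did not overlap in 4.98% of all genes tested (2.46% higher and 2.53% lower in the knockout-tagged group). Its level was 1.30-fold higher (95% interval 1.03 to 1.65, log2 fold change 0.38, SE 0.16, FDR = 0.522). The exact permutation test gave p = 0.0286, the smallest that 4 against 4 libraries allow. The log2 fold change was 0.24 without control-tagged replicate 3, the lowest library, and 0.26 without knockout-tagged replicate 2, the highest.

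*Mpc1*, the partner of *Mpc2* in the carrier, had an estimate of the other sign. It stood at 342, 263, 464 and 366 normalised CPM against 310, 332, 392 and 326 (log2 fold change -0.08, SE 0.16, FDR = 0.910). In control-tagged replicate 3 *Mpc1* was at its highest and *Mpc2* at its lowest of all 8 libraries. Per kilobase, the mean of *Mpc1* was 172 ± 39.6 and 163 ± 17.1, and that of *Mpc2* was 29.9 ± 5.84 and 38.8 ± 5.92 (SD, n = 4 each). Much of this gap rests on merged exon lengths of 2082 bases for *Mpc1* and 7344 for *Mpc2*. Not divided by length, the means were 359 and 340 normalised CPM for *Mpc1* and 219 and 285 for *Mpc2*.

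*Pfkfb1*, the liver and muscle form of the bifunctional enzyme, had the largest estimate and the largest spread. It stood at 7.4, 4.86, 9.14 and 7.91 normalised CPM in the control-tagged and 8.03, 23.1, 14.2 and 6.21 in the knockout-tagged libraries, from 67 to 260 reads. Knockout-tagged replicates 2 and 3 were above every control-tagged library and replicate 4 was below 3 of them. Its level was 1.75-fold higher (95% interval 1.02 to 2.99, log2 fold change 0.81, SE 0.35, FDR = 0.544), with an exact permutation p of 0.229, and the log2 fold change was 0.37 without knockout-tagged replicate 2. *Pfkfb1* shares 123 exon bases with *Apex2* on the opposite strand, and reads of these bases cannot be told apart if strand was not used in counting. *Apex2* was also highest in knockout-tagged replicate 2, at 12.6 normalised CPM where the other 7 libraries lay between 4.5 and 8.05.

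**Figure D3:**
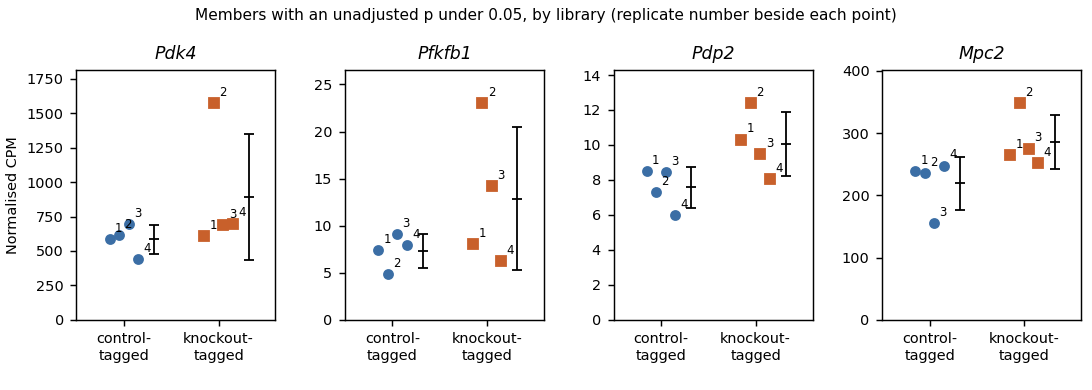
Normalised CPM in each library of the 4 members with an unadjusted p under 0.05, with replicate numbers beside the points and mean and SD (n = 4) as bars at the right of each group. Knockout-tagged replicate 2 is the highest of all 8 libraries in each panel, at 1577 for *Pdk4*, 23.1 for *Pfkfb1*, 12.4 for *Pdp2* and 349 for *Mpc2*.

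The promoters of these genes are shown because their mRNAs were highest together in 1 library. Each window is the 250 bases before the RefSeq transcription start on GRCm38.p6, written 5′ to 3′ on the strand of the gene. Capitals mark matches to CACGTG (the E-box of clock and MYC factors, which contains the hypoxia core ACGTG) and to GGGCGG (the GC box), on either strand. *Pdk4* lies at chr6:5496279-5496528 on the minus strand, *Mpc2* at chr1:165461010-165461259 on the plus strand and *Pdp2* at chr8:104591222-104591471 on the plus strand. *Pfkfb1* has several annotated starts and is not shown.
Pdk4: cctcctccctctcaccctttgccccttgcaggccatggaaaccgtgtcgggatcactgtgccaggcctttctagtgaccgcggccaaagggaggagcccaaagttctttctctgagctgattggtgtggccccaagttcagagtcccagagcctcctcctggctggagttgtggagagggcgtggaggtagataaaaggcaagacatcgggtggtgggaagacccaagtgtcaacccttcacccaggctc
Mpc2: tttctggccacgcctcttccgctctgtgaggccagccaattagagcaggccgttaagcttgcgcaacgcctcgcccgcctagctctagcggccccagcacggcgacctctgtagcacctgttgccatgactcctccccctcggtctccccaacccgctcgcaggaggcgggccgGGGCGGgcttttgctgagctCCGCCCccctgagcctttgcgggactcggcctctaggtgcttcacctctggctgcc
Pdp2: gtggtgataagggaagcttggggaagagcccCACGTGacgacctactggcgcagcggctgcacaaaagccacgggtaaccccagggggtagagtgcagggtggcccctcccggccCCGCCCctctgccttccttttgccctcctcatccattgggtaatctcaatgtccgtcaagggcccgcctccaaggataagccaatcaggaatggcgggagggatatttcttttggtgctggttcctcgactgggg

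Beside these motifs, the half-site of nuclear receptors (AGGTCA) and the TATA box (TATAAA) were searched on both strands. The window of *Pdk4* held no match to any of the 5 motifs. That of *Mpc2* held 2 matches to GGGCGG, and that of *Pdp2* held 1 such match and 1 to the E-box. The 3 windows thus had no motif of the 5 in common. RefSeq windows were found for 36 of the 38 members, 56 windows in all, and were missing for *Pdp1* and *Slc2a4*. The hypoxia core ACGTG was in 35.7% of the member windows (16 of the 36 genes), against 16.6% of all 32851 windows and 17.8% of those of coding genes. The GC box was in 28 of the 56, against 32.7% of all windows and 42.6% of coding ones. Several of the 56 windows belong to the same gene. The nuclear receptor half-site was in 14.3% of the member windows, against 4607 of the 32851. The E-box was in 8.93% against 6.02%, and the TATA box in 1.79% against 12.4%. These shares describe the letters of the windows and were not tested.

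The 6 genes of glycogen storage and breakdown had a median log2 fold change of 0.01, with 3 higher and 3 lower. *Gys1*, glycogen synthase of muscle, had a log2 fold change of 0.14 (SE 0.13, FDR = 0.761), and the branching enzyme gene *Gbe1* had 0.05. *Pygm* and *Pygb*, the muscle and brain glycogen phosphorylases, had log2 fold changes of 0.06 and -0.03, and *Phka1*, a subunit of the kinase that activates them, had -0.02. *Gys1* shares 310 exon bases with *Ruvbl2* on the opposite strand.

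*Ugp2*, which makes the UDP-glucose that glycogen synthase uses, had the lowest estimate of all members. It stood at 301, 487, 174 and 383 normalised CPM in the control-tagged and 337, 286, 272 and 324 in the knockout-tagged libraries (log2 fold change -0.14, SE 0.24, FDR = 0.891). The control-tagged values enclosed all the knockout-tagged ones, and its SD of 0.46 on the log2 scale within groups was the largest after those of *Pfkfb1* (0.65) and *Pdk4* (0.49).

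Forms of one enzyme were compared as log2 ratios of reads per kilobase within each library, which do not depend on the scaling between libraries. Per kilobase, the muscle or insulin-responsive form prevailed in each of the 8 pairs and in every library. For *Hk2* over *Hk1* this rests on the exon lengths of 5969 and 8532 bases, since *Hk1* had the higher normalised CPM, not divided by length, in control-tagged replicates 1 to 3 and knockout-tagged replicate 2. The sizes of the other ratios depend on merged exon lengths too. These were 1739 bases for *Eno3* and 5379 for *Eno1*, and 3340 for *Pfkm* and 13401 for *Pfkp*. *Slc2a4* over *Slc2a1* averaged 3.99 ± 0.24 in the control-tagged and 4.21 ± 0.19 in the knockout-tagged group (SD, n = 4 each), a 17.2-fold excess over all 8 libraries. *Pgam2* over *Pgam1* averaged 5.51 ± 0.40 and 5.36 ± 0.38 (43.2-fold), and *Eno3* over *Eno1* 4.46 ± 0.39 and 4.52 ± 0.28 (22.5-fold). Phosphoglycerate mutase 2 and enolase 3 are the known muscle forms. *Pfkm* exceeded *Pfkl* 10.7-fold and *Pfkp* 39.7-fold. *Pygm* exceeded *Pygb* only 2.20-fold, and *Hk2* exceeded *Hk1* 1.46-fold. *Aldoa* over *Aldoc* averaged 13.9 ± 0.77 and 14.9 ± 0.65, which rests on the few reads of *Aldoc* and moves with the count added before the ratio. The groups overlapped in all 8 pairs.

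**Figure D4:**
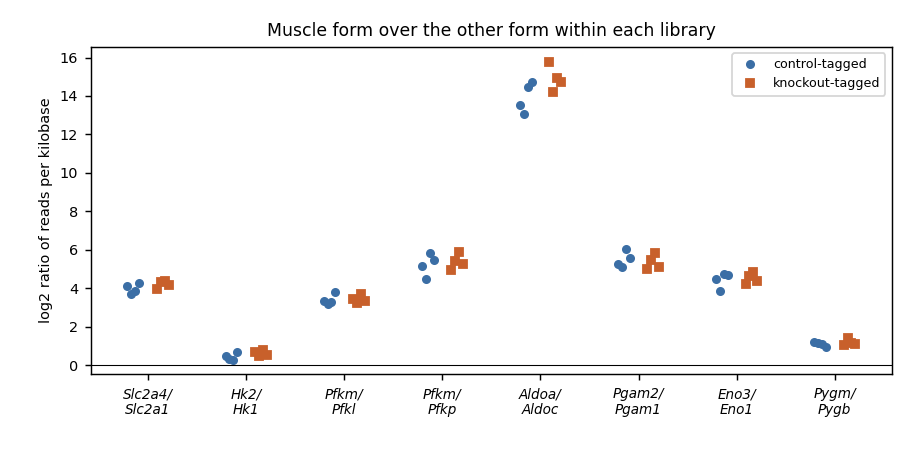
Log2 ratio of reads per kilobase of the muscle or insulin-responsive form over the other form of the same enzyme or transporter, 1 point per library, circles for control-tagged and squares for knockout-tagged. Every point lies above 0, from the pair *Hk2*/*Hk1* (lowest library 0.30) to the pair *Aldoa*/*Aldoc* (highest library 15.8), and the groups overlap in every pair.

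Libraries of one group differed widely in these genes. Control-tagged replicate 2 was the lowest of the 8 libraries in 22 of the 37 tested members (59.5%), where it was the lowest in 18.8% of all genes. Control-tagged replicate 3 was the highest in 11 (29.7%, against 22.1% of all genes) and knockout-tagged replicate 2 in 12 (32.4%, against 14.8%). Within the control-tagged group, 27 members were higher in replicate 3 than in replicate 2 and 10 were lower, where 46.7% of all genes were higher. In replicate 3, 11 were at least 1.5-fold higher, among them *Mpc1* (1.76-fold), *Pfkm* (1.68-fold) and *Eno3* (1.62-fold), and 4 were at least 1.5-fold lower, *Ugp2* (ratio 0.358), *Pdk3* (0.612), *Pfkp* (0.656) and *Mpc2* (0.660). Replicates 2 and 3 of this group had the highest and the lowest TMM factor of all 8 libraries (1.12 and 0.917). This scaling raises every ratio of replicate 3 over replicate 2, and each would be lower on total counts alone. The median absolute log2 difference between these 2 libraries was 0.45 for the members, against 0.32 for all genes tested.

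The 38 genes took 2.63%, 2.42%, 2.69% and 2.52% of all counts in control-tagged replicates 1 to 4 and 2.55%, 2.91%, 2.64% and 2.60% in knockout-tagged replicates 1 to 4. The means were 2.57 ± 0.12% and 2.67 ± 0.16% (SD, n = 4 each, 2-sided exact permutation p = 0.371), so that the difference was smaller than the spread between libraries.

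**Figure D5:**
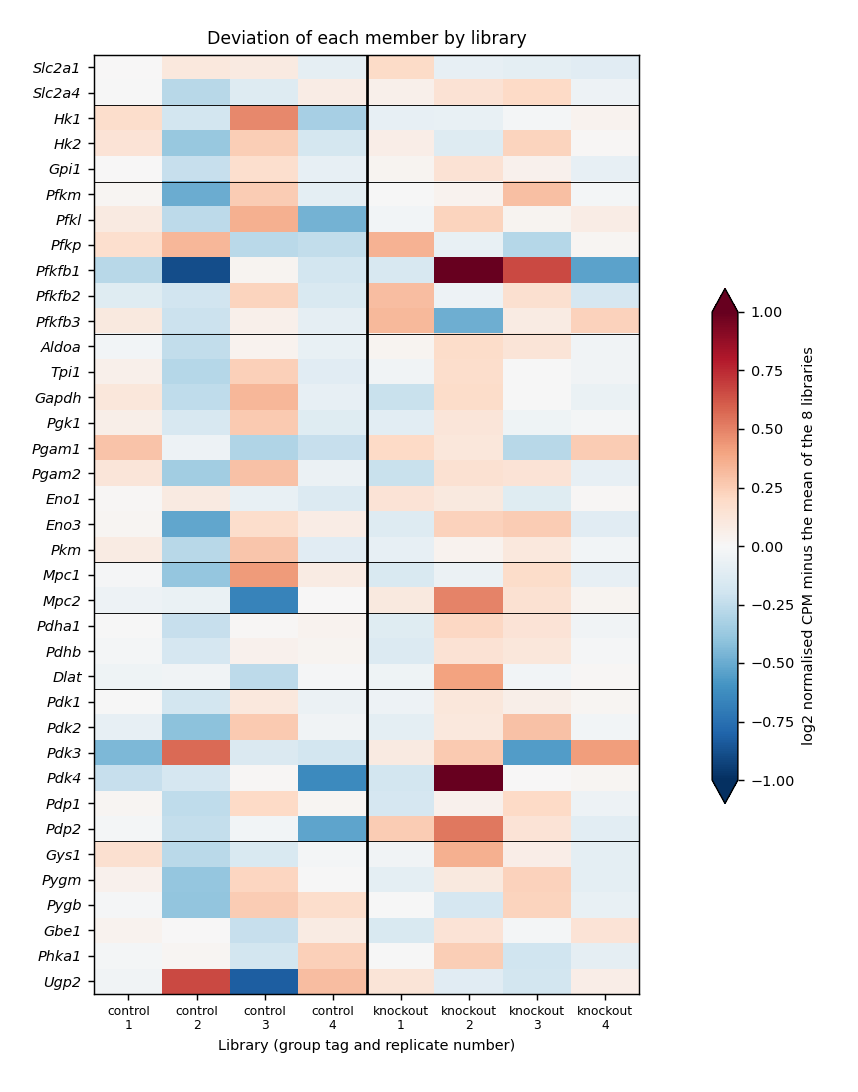
Deviation of each tested member in each library from its mean over the 8 libraries, in log2 normalised CPM, members in rows by role and libraries in columns, red for higher and blue for lower, with the colour scale ending at 1 either way. The column of control-tagged replicate 2 is mostly blue, 22 of 37 members being lowest there, and *Pdk4* and *Pfkfb1* stand out in red in knockout-tagged replicate 2.

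Markers of cell types also differed between these libraries. The summed level of 7 cardiomyocyte markers ranged from 56752 to 88761 normalised CPM in the control-tagged and from 70217 to 87058 in the knockout-tagged group, with control-tagged replicate 2 the lowest and replicate 3 the highest of all 8. *Myh6* and *Actc1* carried most of this sum, and single markers differed. *Actc1* and *Myl3* were highest in control-tagged replicate 3, but *Tnni3* stood there at 3005, near its lowest level (3003 in replicate 2). *Ryr2* was lowest in control-tagged replicate 1 and the other markers in replicate 2. The 9 fibroblast markers ranged from 1764 to 2848 and from 863 to 2304, with control-tagged replicate 2 the highest, and 0 of 9 were higher in the knockout-tagged group. The library with the lowest cardiomyocyte marker sum was thus the one in which most members were lowest. Endothelial markers ranged from 1565 to 1907 and from 1416 to 1552 (1 of 9 higher, 4 lower at an unadjusted p under 0.05). Markers of smooth muscle and pericytes ranged from 1169 to 1710 and from 801 to 1280 (2 of 7 higher, 3 lower at such a p). Of all genes tested, 5.64% were lower at such a p. In LV tissue, fewer cells of a type and less RNA per cell cannot be told apart, and the part of cell composition in the members' values was not tested.

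By sum, markers of ventricle stood above those of atrium. The 4 ventricle markers summed to 13260 to 24434 normalised CPM in the 8 libraries and the 4 atrium markers to 15.4 to 21.8. *Myl2* and *Myl3*, the latter also among the cardiomyocyte markers, carried nearly all of the ventricle sum. *Irx4* stood at 37.3 to 52.0 normalised CPM and *Hey2* at 3.19 to 4.70, below the atrium marker *Nr2f2* (10.4 to 17.7). Of 10 markers of skeletal muscle, the fast myosins *Myh1*, *Myh2* and *Myh4* were at 0 or 1 reads, and 5 passed the filter. *Ckm*, the muscle creatine kinase that cardiomyocytes also make, stood at 2799 to 5718 normalised CPM in the 8 libraries, and *Mylpf*, *Tnni2*, *Tnnt3* and *Atp2a1* at 0.479 to 1.79. Of 7 fat cell markers, *Fabp4*, which capillary endothelium also makes, stood at 780 to 1140.1 normalised CPM. *Adipoq*, *Plin1*, *Lep*, *Ucp1* and *Cidec* were at 0 to 3 reads, and *Cfd* was at 0 to 20.

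The rest of the pathway was described with a list of 58 further genes, of which 51 were tested. Of these, 30 were higher and 21 lower in the knockout-tagged group (median log2 fold change 0.04), 0 passed an FDR of 0.1 and 1 showed p under 0.05 before adjustment. That gene was *Pgm1*, of the phosphoglucomutase family, at 6.43, 10.4, 6.92 and 7.11 normalised CPM in the control-tagged and 5.44, 4.34, 6.79 and 5.97 in the knockout-tagged libraries (log2 fold change -0.45, SE 0.20, FDR = 0.539). Of the 7 pentose phosphate genes, which branch from glycolysis, 1 was higher and 6 were lower (median -0.099).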

How the data were processed

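Per the labels and the methods of the study, the authors trimmed reads with Trim Galore 0.4.4 (Phred cutoff 30), aligned them to GRCm38 with STAR 2.5.4b (mismatch share 0.04, at most 10 alignments) and counted them on GENCODE M16 genes with featureCounts (Rsubread 1.32.4). The deposited values are raw counts per gene. Use of strand and of reads with several alignments is not given in the sources used here, and the labels name depletion of ribosomal RNA where the methods name poly-A selection. If strand was not used, reads of bases shared with antisense genes may have been added to a gene's count or left out of it.

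The 13542 genes that reached a CPM of 1 in 2 or more libraries were tested over all 8 libraries by quasi-likelihood (edgeR 4.0.16, R 4.3.3) with TMM factors 0.917 to 1.12 and no covariates. FDR stands for p adjusted by Benjamini-Hochberg across these genes. Log2 CPM used a prior count of 2. Single values were compared with a 2-sided exact permutation test over 70 splits (smallest p 0.0286). No p was adjusted over the members alone. The likelihood ratio test, which the study ran in edgeR 3.24.3, was an alternative here beside DESeq2 1.42.0, other scalings and filters, other thresholds and each library left out. Total counts were 11449137 to 16239670 per library, and a biological coefficient of variation of 15.1% sets the precision of abundant genes. In simulated data with 13386 genes, 200 of which had a true log2 change of 1 or 2 either way, the quasi-likelihood test recovered 100% at each size with a false share of 5.21% for this comparison. Smaller changes were not simulated. The changed genes were drawn only from genes above a low mean level. Counts had the spread typical of a gene's level, without extra spread of single genes or shifts of whole libraries. The recovered share thus does not hold for scarce or variable members such as *Pdk3*, *Pfkfb1* and *Pdk4*.

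Exon lengths and overlaps came from GENCODE M21 (GRCm38), promoter windows from RefSeq. Larger shares of exon bases than in *Pfkp* (5.58%) or *Gys1* (6.47%) overlapped another gene in other members. These were *Mpc1* (23.1%), *Pdha1* (16.1%) and *Gpi1* (11.5%) on the opposite strand, and *Pfkfb2* (17.4%), *Pkm* (15.3%) and *Pfkm* (10.2%) on the same strand. Their overlapping genes had 4 to 174 reads over the 8 libraries, apart from *Gm49759* at *Pkm*, which has no count. Named genes are members with an unadjusted p under 0.05 or groups that do not overlap, the 3 highest and 3 lowest fold changes, the 3 most abundant, the 3 most variable, the isoform pairs, and other pathway genes with an unadjusted p under 0.05, besides *Flt1*. *Apex2* and the other members were named in addition. Single genes of the marker and hypoxia lists were also named, under no such rule. Of the hypoxia list, *Egln1*, *Egln3* and *Bnip3* are those with an unadjusted p under 0.05. The members and lists were chosen with earlier results of these data known. Replicate numbers were not used as pairs in the main fit.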

Additional observations from a re-analysis of the deposited data

Results flagged for a closer look

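In 9 of the 74 sets of 4 libraries (37 members in 2 groups), 1 library stood apart from the other 3 by more of the range of its group than Dixon's 95% critical value. Chance alone gives about 1 set in 20 for independent sets of normally distributed values. The members moved together by library, so that these sets are not independent. The share over all genes tested was not computed, and the count is no trait of the members. Knockout-tagged replicate 2 was the highest of its group by 0.852 of the range for *Pdk4*, by 0.876 for *Dlat* and by 0.851 for *Tpi1*. Control-tagged replicate 3 was the lowest by 0.89 for *Mpc2* and by 0.874 for *Dlat* and the highest by 0.834 for *Pfkfb2*. Control-tagged replicate 2 was the lowest by 0.871 for *Pdha1*. Knockout-tagged replicate 3 was the highest by 0.836 for *Pfkm*, and knockout-tagged replicate 1 by 0.907 for *Slc2a1*. For *Pdk4* and *Mpc2*, whose estimates rest on such a library, the values without it stand beside the results. *Dlat* had such a library in both groups, and its log2 fold change of 0.18 lay between 0.06 and 0.22 over the 17 alternatives.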

How the results depend on the processing

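No member was called under any of the alternatives. The number of all genes called, 1, became 53 by the likelihood ratio test, 32 by DESeq2, 23 with no filter on low counts, 0 without control-tagged replicates 2 and 3 (an alternative added after seeing the data) and 1 to 3 with single libraries left out. The 4 members with an unadjusted p under 0.05 became 0 without both of those replicates and 0 to 4 with single libraries left out. The members whose groups did not overlap became 2 without both and 1 to 2 with single libraries left out. The other pathway genes with such a p, 1, became 2 by the likelihood ratio test, 2 by DESeq2, 4 with no filter and 0 to 3 with single libraries left out. With fewer libraries, groups that do not overlap are likelier for any gene, and the test has less power. The shares of all genes under these settings were not set beside these counts. The causes were not tested.

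Of 629 comparisons of a member's fold change with 17 alternatives, 44 turned direction, in 19 members, all of them uncalled, and the rest kept direction. The estimates of *Pdk4* and *Pfkfb1* exceeded 1.5-fold in the main fit but fell under it in some alternatives. Without knockout-tagged replicate 2 their log2 fold changes were 0.18 and 0.37. That of *Pdk4* was also 0.50 without control-tagged replicate 4 and 0.51 with the replicate number as a block. Without control-tagged replicates 2 and 3, log2 fold changes turned to 0.022 for *Slc2a1*, 0.019 for *Hk1*, 0.019 for *Pgk1*, -0.0087 for *Pdp1* and -0.032 for *Gbe1*. With total counts they turned to -0.021 for *Pfkp*, -0.0044 for *Pkm* and -0.0027 for *Pdp1*. With single libraries left out, the ranges that crossed 0 were -0.22 to 0.057 for *Hk1*, -0.033 to 0.17 for *Hk2*, -0.0070 to 0.27 for *Pfkl*, -0.13 to 0.13 for *Pfkp*, -0.039 to 0.13 for *Tpi1*, -0.15 to 0.043 for *Gapdh*, -0.085 to 0.059 for *Pgk1*, -0.12 to 0.086 for *Pgam2*, -0.019 to 0.19 for *Eno3*, -0.083 to 0.10 for *Pkm*, -0.039 to 0.34 for *Pdk3*, -0.070 to 0.076 for *Pdp1*, -0.20 to 0.067 for *Mpc1*, -0.046 to 0.14 for *Pygm*, -0.14 to 0.057 for *Pygb*, -0.017 to 0.10 for *Gbe1*, -0.12 to 0.055 for *Phka1* and -0.36 to 0.093 for *Ugp2*. The *Aldoa*/*Aldoc* log2 ratio was 13.6 in the control-tagged group with 2 counts added.

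With the replicate number as a block, 3 members had an unadjusted p under 0.05, 0 were called and 1 gene of all was called. Same-numbered libraries correlated by -0.03, 0.03, 0.34 and -0.06, and differently numbered ones by -0.49 to 0.30. These values do not show whether same-numbered samples were paired. *Aldoc* and *Pdk3* rest on few reads, and *Aldoc* could not be tested at this depth.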

Other observations

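The hypoxia list, whose genes respond to low oxygen as glycolytic genes do, was described with the same fit. Of its 11 genes, 10 were tested, 6 were higher and 4 lower, and 3, all higher, had an unadjusted p under 0.05, as did 3.32% of all genes in that direction. The summed level of the list lay between 1370 and 1610 normalised CPM in the control-tagged and between 1692 and 1936 in the knockout-tagged libraries, with no overlap. The groups of single genes did not overlap in 4.98% of all genes, but that share is no background for a sum. Sums of other lists of this size were not drawn, and this list was chosen with earlier results known. *Vegfa* and *Egln1* carried most of the sum, and *Vegfa* averaged 541 ± 32.2 and 635 ± 59.4 (SD, n = 4 each, FDR = 0.559). *Egln1*, an oxygen sensor, stood at 548, 517, 476 and 468 against 622, 685, 580 and 597 normalised CPM (log2 fold change 0.31, SE 0.10, FDR = 0.468). *Egln3*, another, stood at 110, 145, 64.7 and 80.3 against 164, 166, 116 and 126 (log2 fold change 0.52, FDR = 0.530), and *Bnip3*, a mitophagy receptor, at 150, 174, 79.9 and 185 against 214, 229, 183 and 183 (log2 fold change 0.46, FDR = 0.556). The 4 lower genes were *Ndrg1*, *P4ha1*, *Adm* and *Ankrd37*, with log2 fold changes from -0.13 (*Adm*) to -0.02 (*Ankrd37*). No gene of the list passed an FDR of 0.1. Of 16 circadian clock genes, 11 were higher, 4 of them and 1 lower gene at an unadjusted p under 0.05, and 0 had an FDR under 0.1. Of all genes tested, 3.32% were higher and 5.64% lower at such a p. Red blood cell markers were lower in 5 of 5, with 0 at such a p, and all but *Alas2* are globin genes. Leukocyte markers were lower in 7 of 9, with 1 at such a p.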
